A study of Mus musculus with 23 samples.

Results

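The start sites of long intergenic noncoding RNA (lincRNA) genes were examined in 8 lists of histone modification peaks from the embryonic mouse cerebral cortex. A member was the 5′ end of a gene of type lincRNA in GENCODE M21, on chromosomes 1 to 19 or X, lying over 5 kb from every protein-coding gene start. By this rule 4678 start sites were found among the 5305 lincRNA genes of these chromosomes and the 53843 annotated gene starts of all types. The remaining 627 lincRNA starts lay within 5 kb of a coding start, where a peak cannot be assigned to either gene. The rule does not assign the peaks of members to the lincRNA either. Of the members, 222 (4.75%) lay inside a protein-coding gene. Another coding start lay over 5 to 10 kb from 272 members, so that a peak between them can lie within 5 kb of both. The rule used position and annotation and no peak.

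All cells came from embryos of the transgenic line Tg(Ebf2-EGFP)FB58Gsat, in which regulatory sequences of Ebf2, a gene of early cortical neurons, drive EGFP. EGFP+ cells were sorted on E11.5, on E13.5 and on E15.5, and EGFP- cells on E11.5, and chromatin was precipitated for acetylation (H3K27ac) or trimethylation (H3K27me3) of lysine 27 of histone H3. Per the study's description of the line, E11.5 EGFP+ cells are mainly preplate neurons, E11.5 EGFP- cells are mostly progenitors, and E15.5 EGFP+ cells are mostly Cajal-Retzius (CR) neurons of layer 1. Each mark and cell group had 2 ChIP libraries (1 for H3K27ac of Ebf2-EGFP- cells) but a single list, whether the libraries were pooled is not given, and their depth is unknown. With single lists, replicate error could not be had and groups were not tested against each other, so differences between lists are descriptions, and the Wilson 95% intervals cover counting over start sites only. A start site was called marked when a peak lay within 5 kb. Where 3 values follow each other for Ebf2-EGFP+ cells, they run from E11.5 over E13.5 to E15.5.

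A lincRNA gene is transcribed and spliced like a coding gene but carries no long open reading frame. Some lincRNAs act in the nucleus, such as Xist in X inactivation and Malat1 and Neat1 in nuclear bodies, and others are the primary transcripts from which microRNAs are cut. Many promoters of this class are poor in CpG dinucleotides and are used in few tissues. H3K27ac is found at active promoters and enhancers, and H3K27me3 is the product of Polycomb repressive complexes at genes kept silent, so a start site may carry either mark in different cells.

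Promoter sequences of 4 members whose marking is described further on are shown first, because they span the range from CpG-rich to CpG-poor among starts acetylated at all 3 Ebf2-EGFP+ stages. They run 5′ to 3′ from 250 bases before to 50 bases after the start on the gene's strand in GRCm38, with every CpG in capitals. Mir9-3hg is at chr7:79499776-79500075, Mir124a-1hg at chr14:64587081-64587380, Mir124-2hg at chr3:17789671-17789970 and Meg3 at chr12:109540751-109541050, all on the plus strand.
Mir9-3hg: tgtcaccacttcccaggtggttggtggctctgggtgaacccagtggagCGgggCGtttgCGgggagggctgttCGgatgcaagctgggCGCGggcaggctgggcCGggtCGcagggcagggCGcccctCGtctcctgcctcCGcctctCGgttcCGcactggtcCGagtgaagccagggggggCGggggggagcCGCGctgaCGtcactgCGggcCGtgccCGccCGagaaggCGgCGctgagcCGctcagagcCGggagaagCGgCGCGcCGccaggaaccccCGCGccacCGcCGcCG
Mir124a-1hg: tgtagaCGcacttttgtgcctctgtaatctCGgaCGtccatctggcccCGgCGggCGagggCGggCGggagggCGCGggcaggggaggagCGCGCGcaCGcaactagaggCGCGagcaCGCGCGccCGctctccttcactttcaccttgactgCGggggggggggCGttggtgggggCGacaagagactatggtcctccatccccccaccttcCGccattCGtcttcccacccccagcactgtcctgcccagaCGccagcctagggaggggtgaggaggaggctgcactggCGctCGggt
Mir124-2hg: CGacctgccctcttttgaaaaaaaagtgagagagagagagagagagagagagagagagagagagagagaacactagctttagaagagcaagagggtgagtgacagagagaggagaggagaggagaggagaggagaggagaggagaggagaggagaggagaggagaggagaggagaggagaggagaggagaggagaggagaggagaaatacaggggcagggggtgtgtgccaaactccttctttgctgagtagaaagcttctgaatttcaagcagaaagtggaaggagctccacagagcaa
Meg3: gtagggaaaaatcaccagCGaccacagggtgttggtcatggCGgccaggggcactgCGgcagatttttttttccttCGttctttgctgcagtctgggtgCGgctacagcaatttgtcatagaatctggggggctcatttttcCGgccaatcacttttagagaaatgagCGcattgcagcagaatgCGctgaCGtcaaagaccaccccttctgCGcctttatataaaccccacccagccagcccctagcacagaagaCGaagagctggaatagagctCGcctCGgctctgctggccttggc
The 300 bases held 35 CpG dinucleotides at Mir9-3hg, 28 at Mir124a-1hg, 13 at Meg3 and 1 at Mir124-2hg, where a GA-rich repeat fills most of the window. The observed over expected CpG ratio was 0.84, 0.79, 0.59 and 0.081 in the same order.

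The mature microRNAs of 2 families whose host genes are members are shown next, with the seed (bases 2 to 8) in capitals, as RefSeq gives them on GRCm38. The miR-9 pair is encoded in each of 3 member genes, Gm3764, C130071C03Rik and Mir9-3hg, so these unlinked start sites yield the same products. The let-7 microRNAs come from 6720427I07Rik.
mmu-miR-9-5p: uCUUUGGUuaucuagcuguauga
mmu-miR-9-3p: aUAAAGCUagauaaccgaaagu
mmu-let-7a-5p: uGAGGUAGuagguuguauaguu
mmu-let-7d-5p: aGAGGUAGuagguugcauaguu
mmu-let-7f-5p: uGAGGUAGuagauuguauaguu
The let-7a, let-7d and let-7f strands shared their seed, and neither miR-9 strand shared it.

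The lists differed in length, from 1386 to 102881 peaks for H3K27ac and from 1438 to 48963 for H3K27me3, and coding genes of known behaviour were checked before the lincRNAs were read. Of 9 genes of CR cells and early neurons, among them Reln, Trp73 and Lhx5, 8, 9 and 7 carried H3K27ac at the successive Ebf2-EGFP+ stages, and 3 in the Ebf2-EGFP- list. Of 8 progenitor genes, such as Pax6, Sox2 and Nes, none was marked by H3K27ac in the E11.5 Ebf2-EGFP- list, against 6, 8 and 5 in the Ebf2-EGFP+ lists, so defining progenitor markers were missing from that list of 1386 peaks. Of 8 genes of microglia, endothelium and blood, 2, 4 and 2 were marked by H3K27ac at the 3 Ebf2-EGFP+ stages and 0 in Ebf2-EGFP- cells. The H3K27me3 list of E11.5 Ebf2-EGFP- cells was at 7 of the 9 genes of CR cells and early neurons, but also at 6 of the 8 progenitor genes, Sox2 and Nes included. It was at 6 of 10 broadly expressed coding genes such as Actb as well. The E13.5 H3K27ac list was at 38 of 39 Hox genes, a family that is largely silent in the cortex. H3K27me3 was listed at 28 Hox genes in the Ebf2-EGFP- group and at 0, 24 and 7 by stage in Ebf2-EGFP+ cells. The part of these departures in the counts for lincRNAs was not tested.

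Acetylation was found at a minority of lincRNA starts in every list. In Ebf2-EGFP+ cells H3K27ac marked 614 of 4678 at E11.5 (13.1%, 95% interval 12.19 to 14.12), 1636 at E13.5 (35.0%, 33.6 to 36.3) and 438 at E15.5 (9.36%, 8.561 to 10.23). In E11.5 Ebf2-EGFP- cells it marked 37 (0.791%, 0.574 to 1.09). Over all annotated gene starts the shares were 31.9%, 46.5%, 31.1% and 2.47% in this order, so lincRNA starts were below the background in each list. The order of the 4 lists was that of their peak numbers, which were 37055, 102881, 25793 and 1386, and with lists of 1386 peaks each the counts were 21, 15, 28 and 37. List length and acetylation cannot be told apart in these counts.

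The H3K27me3 list of E11.5 Ebf2-EGFP- cells, the longest for this mark with 48963 peaks against 6387, 6721 and 1438, was at the most lincRNA starts. H3K27me3 marked 775 starts there (16.57%, 15.53 to 17.66), against 150 (3.21%), 157 (3.36%) and 39 (0.834%) in Ebf2-EGFP+ cells at the successive stages. With the 1438 widest peaks of each list the order turned, to 10 lincRNAs in Ebf2-EGFP- cells and 34, 40 and 39 in Ebf2-EGFP+ cells. The background shares over all gene starts were 32.8%, 3.99%, 6.22% and 0.921%. The background lay within the lincRNA interval only at E15.5 (0.610 to 1.14) and above it in the other 3 lists, although at E11.5 in Ebf2-EGFP+ cells (2.74 to 3.75) it did so by little.

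**Figure D1:**
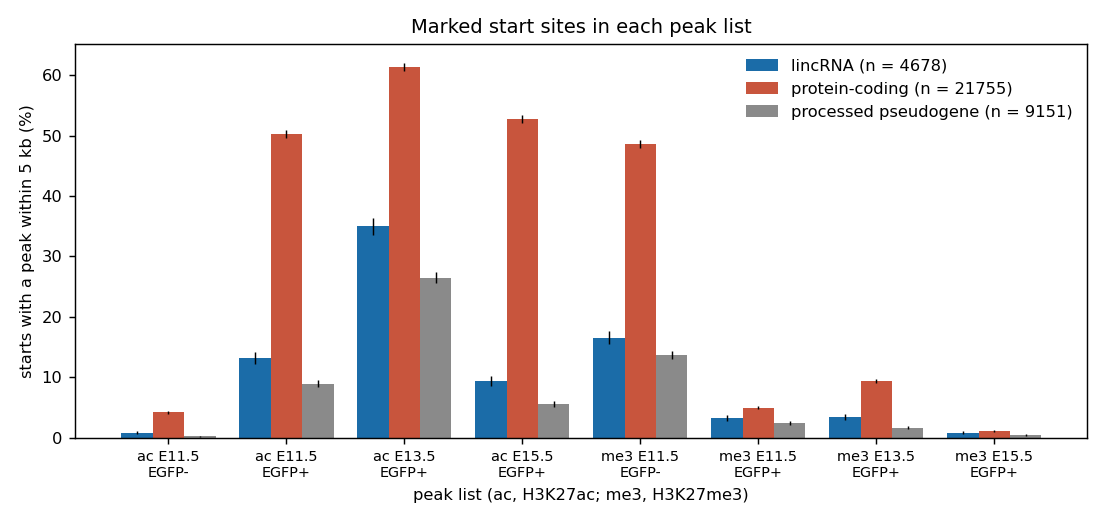
Share of start sites with a peak within 5 kb (y axis, percent) in each of the 8 peak lists (x axis), for lincRNA starts, protein-coding starts and processed pseudogene starts over 5 kb from coding starts. Error bars are Wilson 95% intervals for counting. LincRNA bars lie below the coding bars in all 8 lists and above the pseudogene bars, for example 13.1%, 50.4% and 8.92% for H3K27ac at E11.5 in Ebf2-EGFP+ cells.

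Start sites of other intergenic classes were marked too, in smaller shares. Starts of 9151 processed pseudogenes, which are reinserted copies of mRNAs, and of 2735 TEC genes, which are transcripts awaiting experimental evidence, were chosen by the same distance from coding starts. H3K27ac at E13.5 marked 26.5% of the pseudogenes and 28.3% of the TEC genes beside 35.0% of the lincRNAs. At E15.5 the shares were 5.57%, 7.64% and 9.36%, and for H3K27me3 in the Ebf2-EGFP- group 13.6%, 14.4% and 16.6%. Relative to the pseudogenes the lincRNA share was higher for H3K27ac in Ebf2-EGFP- cells, at 0.791% against 0.186%, and for H3K27me3 at E13.5, at 3.36% against 1.66%. The lincRNA share exceeded the pseudogene share in all 8 lists, but the intervals overlapped for H3K27me3 in Ebf2-EGFP+ cells at E11.5 (2.74 to 3.75 against 2.14 to 2.77) and at E15.5 (0.610 to 1.14 against 0.340 to 0.620). With lists cut to equal length by peak width, the lincRNA share was the lower for H3K27ac at E13.5 (0.321% against 0.383%). The same was so for H3K27me3 in Ebf2-EGFP- cells (0.214% against 0.273%). The lincRNA and TEC intervals lay apart for H3K27ac at E11.5 and E13.5 in Ebf2-EGFP+ cells and for H3K27me3 at E13.5. They overlapped in the other lists, as for H3K27ac at E15.5 (8.561 to 10.23 for lincRNAs, 6.704 to 8.698 for TEC genes).

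LincRNA starts were seldom acetylated throughout, and most of those acetylated were so at E13.5 alone. Of 1993 lincRNAs with an H3K27ac peak at any stage of Ebf2-EGFP+ cells, 1109 had it only at E13.5, 185 only at E11.5 and 131 only at E15.5. Over all gene starts 16.0%, 2.99% and 3.12% had these patterns, beside 23.7%, 3.96% and 2.80% of the lincRNAs. A total of 127 lincRNAs, 2.72% of the members against 18.6% of all gene starts and 2.67% of TEC genes, had a peak at all 3 stages. Among starts marked at any stage, the share marked at all 3 was 6.37% for lincRNAs, 44.5% for coding genes and 3.64% for pseudogenes. The share marked at E13.5 alone was 55.6%, 16.5% and 60.55% in the same order, so it was not particular to lincRNAs. The E13.5 list held the most peaks, and the order of the stages turned when lists were limited to their 1386 widest peaks, with 21, 15 and 28 lincRNAs marked at the successive stages.

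**Figure D2:**
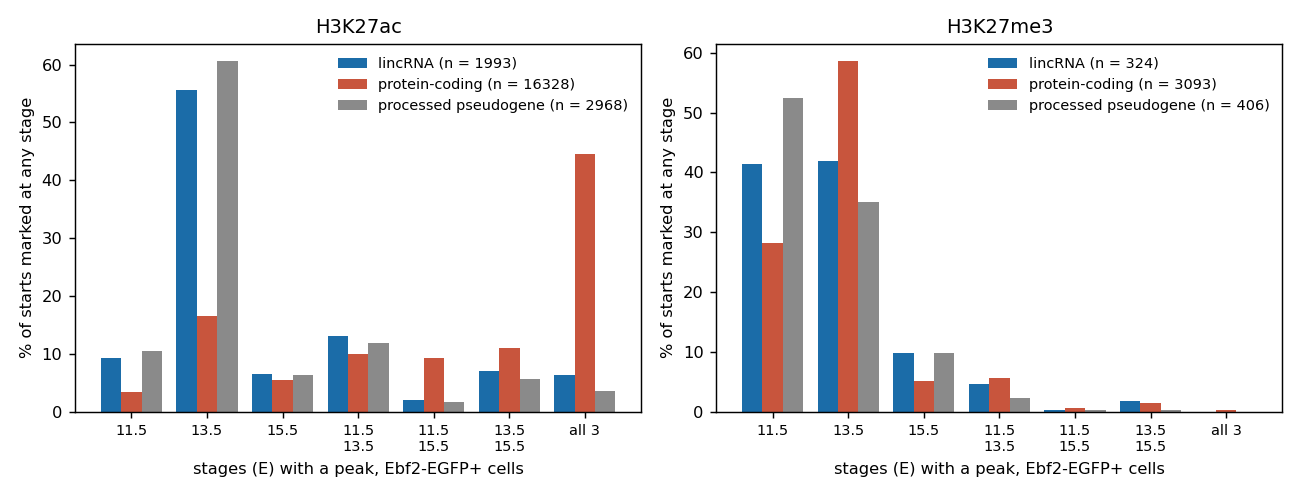
Stages at which marked starts had a peak in Ebf2-EGFP+ cells, for H3K27ac (left) and H3K27me3 (right). The y axis is the percent of starts marked at any stage, and bars are lincRNA, protein-coding and processed pseudogene starts. E13.5 alone holds 55.6% of acetylated lincRNAs against 16.5% of acetylated coding starts and 60.55% of acetylated pseudogenes. No lincRNA had H3K27me3 at all 3 stages.

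The share of acetylated starts that were also acetylated at a later stage was lower for lincRNAs than for coding genes, with intervals that did not overlap. Of the 614 lincRNAs marked at E11.5 in Ebf2-EGFP+ cells, 388 were also marked at E13.5 (63.2%, 59.3 to 66.9) and 168 at E15.5 (27.36%, 23.98 to 31.02), against 81.2% and 80.2% of coding starts. Among lincRNAs not marked at E11.5, 30.71% were marked at E13.5 and 6.644% at E15.5, against 41.44% and 24.85% of such coding starts. The lincRNA share was thus the lower with and without an E11.5 peak, and the lower shares do not show weaker persistence. In 186 of the 388 (47.9%) the peaks of the E11.5 and E13.5 lists overlapped, so the others were marked at different positions within the window. At coding starts marked at both stages the peaks overlapped in 6384 of 8891 (71.8%). Of the 1636 marked at E13.5, 266 were marked at E15.5 (16.3%, against 67.7% of coding starts). For H3K27me3, 15 of the 150 lincRNAs marked at E11.5 were also marked at E13.5 (a share with an interval of 6.15 to 15.8%, against 17.2% of coding starts). Of 324 lincRNAs trimethylated at any of these stages 22 were so at 2 stages and 0 at 3, beside 240 and 10 of 3093 coding starts.

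Hosts of neuronal microRNAs were among the lincRNAs acetylated at all 3 stages. The microRNAs miR-9 and miR-124 are abundant in the developing nervous system, where miR-124 is typical of neurons. Because every peak carries the same score, the extent of marking is given as the summed width of the peaks that touch the 10 kb window, which says nothing of their height. At Mir9-3hg the H3K27ac peaks summed to 189 bp in Ebf2-EGFP- cells and to 3209, 860 and 5545 bp in Ebf2-EGFP+ cells at the successive stages, with a further 1134 bp of H3K27me3 in the Ebf2-EGFP- group. Mir124a-1hg, whose promoter is also CpG-rich, had 157, 1406, 767 and 3904 bp of H3K27ac in the same order and 130 bp of H3K27me3. Mir124-2hg, the GA-repeat promoter shown above, had no H3K27ac peak in Ebf2-EGFP- cells and 1875, 296 and 2117 bp in Ebf2-EGFP+ cells, with 217 bp of H3K27me3 in Ebf2-EGFP- cells. At these 3 genes the narrowest extent among Ebf2-EGFP+ stages was at E13.5, in the list with the most peaks, and none had H3K27me3 in any Ebf2-EGFP+ list.

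All 3 hosts of miR-9 were acetylated in Ebf2-EGFP+ cells, each with 5 peaks at E15.5. Gm3764, the host of Mir9-1, had 1216, 333 and 2124 bp of H3K27ac at the successive stages and 200 bp of H3K27me3 in E11.5 Ebf2-EGFP+ cells. C130071C03Rik, the host of Mir9-2, had 502 bp at E11.5 and 2511 bp at E15.5 and no peak at E13.5. Opposite-strand neighbours of Gm3764 and C130071C03Rik, whose windows overlap theirs, were also acetylated, with 1835, 650 and 2967 bp at AI849053 beside Gm3764 and 1391, 140 and 4590 bp at Gm26803 inside C130071C03Rik. The host of let-7 microRNAs, which act in developmental timing, is 6720427I07Rik and had H3K27ac in all 4 cell groups, with 275 bp in Ebf2-EGFP- cells and 592, 248 and 1076 bp in Ebf2-EGFP+ cells, and 170 bp of H3K27me3 in Ebf2-EGFP- cells. Mir17hg, the precursor of the growth-related miR-17 cluster, had 327, 1247, 905 and 2042 bp of H3K27ac, together with 563 bp of H3K27me3 in Ebf2-EGFP- cells and 778 bp in E13.5 Ebf2-EGFP+ cells. Of 36 members that contain a mature microRNA of RefSeq, 12, 17 and 12 were acetylated at the 3 Ebf2-EGFP+ stages (33.3%, 47.2% and 33.3%) and 5 at all of them (13.9%). Mir124a-1hg and Mir124-2hg are not among these 36, because no mature miR-124 sequence was matched to them. The shares of all gene starts were 31.9%, 46.5% and 31.1%, and 18.6% for all 3 stages. Those of all lincRNA members were 13.1%, 35.0% and 9.36%, and 2.72% for all 3 stages.

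Among the 9 lincRNAs listed for neural roles, 7, 7 and 8 were acetylated at the successive stages in Ebf2-EGFP+ cells and 6 at all 3 stages, with 2 acetylated in E11.5 Ebf2-EGFP- cells. Miat, a nuclear RNA of neurons, had 1569, 814 and 1809 bp of H3K27ac and no H3K27me3. Rmst, which takes part in neurogenesis with Sox2, had a single peak of 310 bp at E15.5, and Otx2os1, a neighbour of Otx2, had 160 bp of H3K27ac at E13.5 and 408 bp of H3K27me3 in Ebf2-EGFP- cells. Lncpint, a target of p53, had 392, 678 and 905 bp of H3K27ac and 217 bp of H3K27me3 at E13.5. Rncr4 combined 709, 1112 and 294 bp of H3K27ac with 364 bp of H3K27me3 in Ebf2-EGFP- cells and 901 bp at E13.5. The list was chosen with results known, and its shares stand beside the background of 31.9%, 46.5% and 31.1% as a description.

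Broadly expressed lincRNAs were acetylated about as often, at 7, 6 and 8 of 9 members by stage, against the same background. Malat1 had 759, 353 and 1037 bp of H3K27ac in Ebf2-EGFP+ cells, and 2900097C17Rik (Norad), which sequesters Pumilio proteins, had 456, 348 and 644 bp. Neat1, the scaffold of paraspeckles, had 506 and 350 bp at E11.5 and E13.5 and no peak at E15.5. H3K27me3 was listed at 7 of these 9 in E11.5 Ebf2-EGFP- cells, Malat1 (203 bp) and Neat1 (490 bp) included, and at Malat1 also at E13.5 (167 bp). That list was also at 6 of 10 broadly expressed coding genes, and its part in these values was not tested.

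Of 6 imprinted or X-inactivation lincRNAs, 2, 3 and 3 were acetylated at the successive stages, and of 4 patterning or mesoderm lincRNAs 1, 4 and 1, beside 31.9%, 46.5% and 31.1% of all gene starts. Meg3, the maternally expressed RNA of the Dlk1-Dio3 domain, had 284 bp of H3K27me3 in Ebf2-EGFP- cells and 324, 142 and 429 bp of H3K27ac, of which only the E15.5 peak covered the start; at E11.5 and E13.5 the nearest peak edges were at -1874 and -1867 bp (negative values lie before the start). Xist, the RNA that coats the inactive X chromosome, had 389 bp of H3K27ac at E15.5 and no other peak, while Jpx, an activator of Xist, had 262 bp at E11.5 and 511 bp at E15.5. H19 had 153 bp of H3K27ac at E13.5, with 140 bp of H3K27me3 in Ebf2-EGFP- cells and 134 bp at E13.5. All 4 patterning or mesoderm members (Halr1, Hotair, Bvht and Carmn) were acetylated at E13.5 and trimethylated in E11.5 Ebf2-EGFP- cells. Halr1, beside the Hoxa genes, had 14775 bp of H3K27ac in 5 peaks at E13.5, a single peak of 65143 bp at E15.5 and 3780 bp of H3K27me3 in 10 peaks at E15.5, so both marks were listed over the same start at that stage. Hox coding genes were also marked by H3K27ac in the E13.5 list, at 38 of 39.

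**Figure D3:**
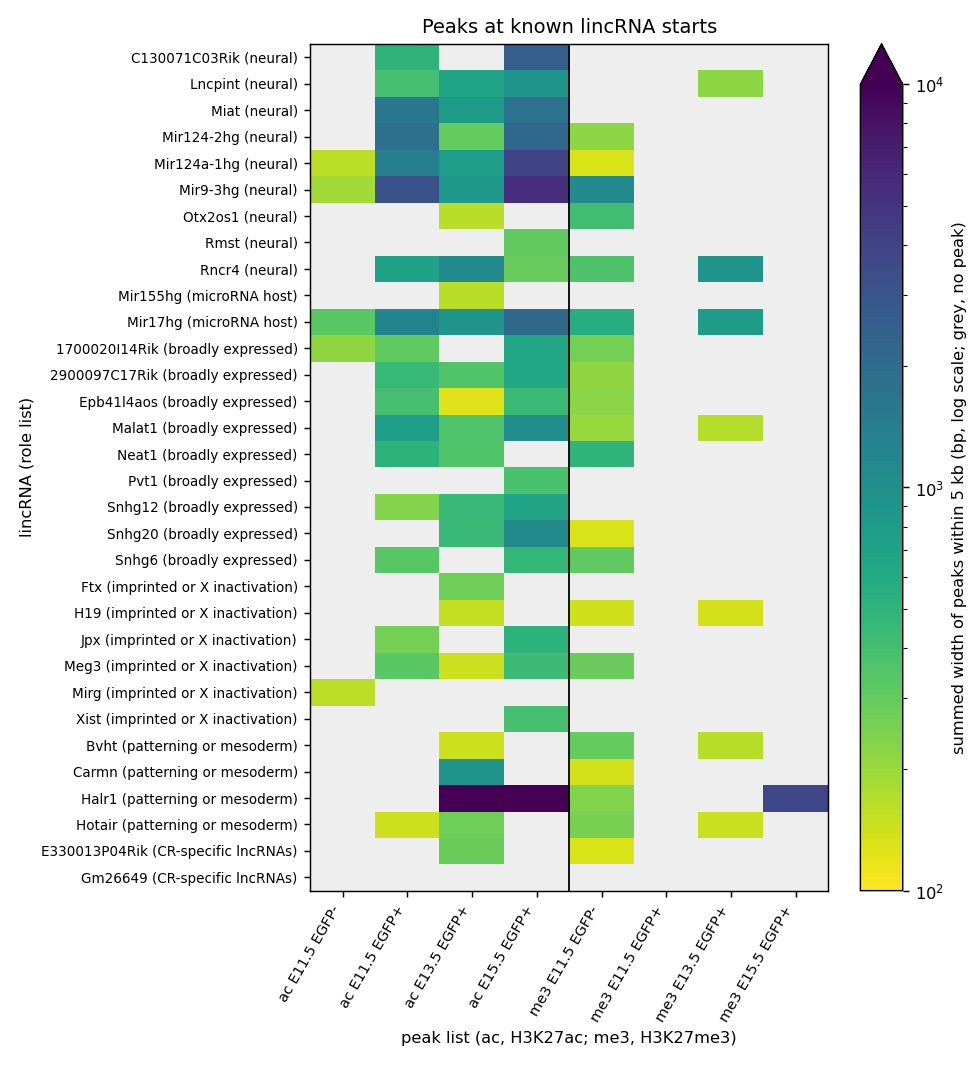
Summed width of peaks within 5 kb (colour, bp on a log scale, grey for no peak) at 32 lincRNAs of known roles (rows) in the 8 peak lists (columns, H3K27ac left of the line). Miat and the microRNA hosts Mir9-3hg, Mir124a-1hg and Mir124-2hg are dark in the H3K27ac columns of Ebf2-EGFP+ cells of E11.5 and of E15.5, and the column for H3K27me3 of E11.5 Ebf2-EGFP+ cells is empty.

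LincRNAs acetylated at a single stage had narrower peaks. The median of their summed peak width was 180 bp for E11.5 alone, 200 bp for E13.5 alone and 243 bp for E15.5 alone, against 409, 383 and 561 bp at these stages for lincRNAs marked at all 3. Stages alone refer to H3K27ac, and some of these starts had H3K27me3 peaks. The widest marking at E11.5 alone was a peak of 602 bp shared by the windows of Gm47916 and Gm6093, followed by the divergent pair 4930428N03Rik and 4930542C16Rik with 3 shared peaks summing to 564 bp. At E13.5 alone it was at 9230019H11Rik (1585 bp) and Gm14641 (1282 bp), and at E15.5 alone at Gm27004 (1523 bp) and the divergent pair Gm26656 and Gm44066 (1224 bp). Starts of a divergent pair share their peaks and are not independent.

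Trimethylated lincRNAs of the E11.5 Ebf2-EGFP- list had a larger acetylated share in Ebf2-EGFP+ cells than the other lincRNAs. Of the 775, 236 carried H3K27ac in E11.5 Ebf2-EGFP+ cells (30.5%, 27.3 to 33.8), against 9.685% (8.796 to 10.65) of the remaining 3903. This pair of marks was found at 20.8% of all gene starts, at 5.04% of lincRNA starts and at 5.19% of TEC starts. At E13.5 the shares were 65.4% and 28.9%, and at E15.5 23.6% and 6.53%. Of the 127 lincRNAs acetylated at all 3 stages, 75 (59.1%) were trimethylated in the Ebf2-EGFP- list, Mir9-3hg and Mir124-2hg among them. The same direction held for processed pseudogenes (26.2% against 6.19% at E11.5) and coding genes (72.3% against 29.6%), so it was not particular to lincRNAs, and the part of the H3K27me3 list's coverage of active genes was not tested.

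Both marks within the same cell group were rare at lincRNA starts. They were found at 25 lincRNAs in E11.5 Ebf2-EGFP- cells and at 55, 114 and 13 in Ebf2-EGFP+ cells at the successive stages, which is 0.534%, 1.18%, 2.44% and 0.278% beside 1.98%, 2.46%, 5.45% and 0.513% of all gene starts. In E11.5 Ebf2-EGFP- cells 25 of the 37 acetylated lincRNAs also carried H3K27me3, and in 22 of the 25 the peaks overlapped. This was 67.57% of acetylated lincRNAs, against 81.95% of acetylated coding starts and 35.29% of acetylated pseudogenes. At E13.5 72.6% of the trimethylated lincRNAs were acetylated, while 6.97% of the acetylated ones were trimethylated. These shares were 90.06% and 13.76% for coding starts and 66.45% and 4.167% for pseudogenes. Among the 150 lincRNAs trimethylated in the E11.5 Ebf2-EGFP+ group, the widest marking was at Gm43661 (492 bp), Gm13833 (471 bp) and Gm19277 (414 bp). Peaks of sorted populations do not show that both marks sit on the same chromosome copy.

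Peaks gathered at lincRNA starts only weakly. In the central 1 kb the share of lincRNAs with an H3K27ac peak per 500 bp bin was 2.18, 1.92 and 3.36 times that of the outer bins at the successive stages, against 13.49, 5.576 and 21.76 times at coding starts and 3.63, 2.88 and 3.27 times at pseudogenes. The nearest peak of a marked lincRNA lay within 1 kb in 38.3%, 37.3% and 46.4%, and its median distance was 1640, 1685 and 1182 bp. LincRNAs acetylated at all 3 stages had a peak within 1 kb in 56.7%, 56.7% and 58.3%, whereas those marked at a single stage had one in 35.1%, 34.9% and 38.9%. With a window of 1 kb in place of 5 kb, 235, 610 and 203 lincRNAs were marked.

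**Figure D4:**
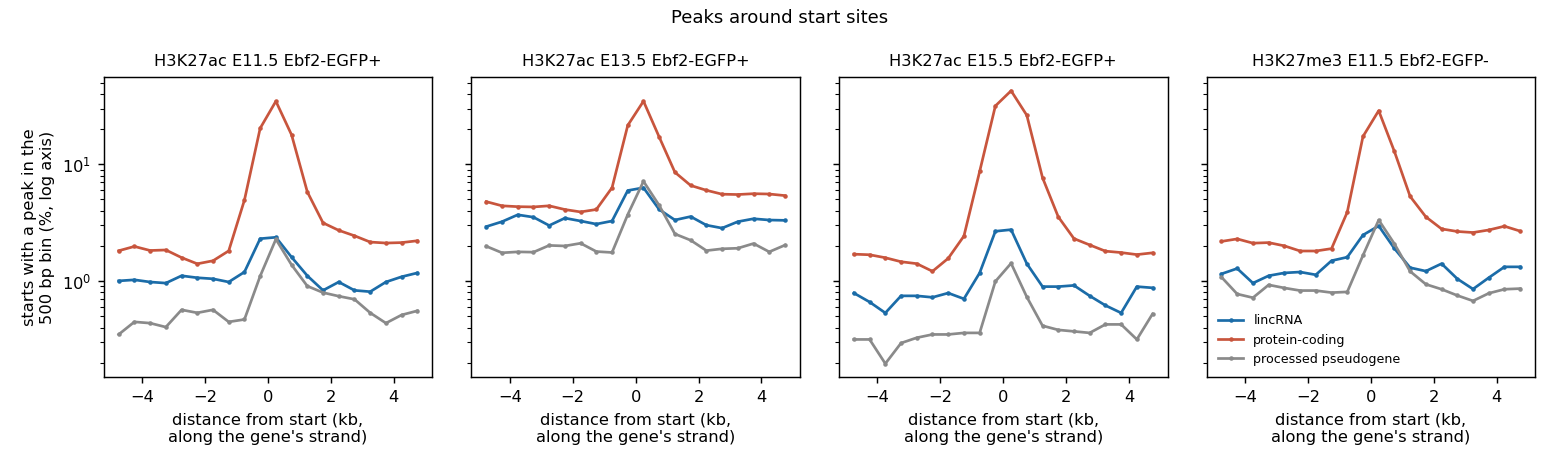
Share of starts with a peak in each 500 bp bin (y axis, percent, log axis) by distance from the start along the gene's strand (x axis, kb), in the 4 longest lists, for lincRNA, protein-coding and processed pseudogene starts. Coding curves rise steeply at the start, and lincRNA curves rise 1.92 to 3.36 times over their outer bins for H3K27ac and 2.14 times for H3K27me3.

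The marked share was higher for CpG-rich lincRNA promoters than for the others in the H3K27ac lists. A promoter was called CpG-rich when the 300 bases around its start had an observed over expected CpG ratio of at least 0.6 and a GC content of at least 50%, which held for 187 lincRNAs (3.997%), 41.6% of coding genes and 4.04% of pseudogenes. H3K27ac marked 38.0% of CpG-rich and 12.1% of other lincRNAs at E11.5 in Ebf2-EGFP+ cells, 59.9% and 33.9% at E13.5, and 39.0% and 8.13% at E15.5. The direction was the same for pseudogenes, at 20.8% and 8.42%, 46.8% and 25.6%, and 18.1% and 5.045% by stage. It was also the same for coding starts, at 76.1% and 32.0% at E11.5, and so not particular to lincRNAs. H3K27me3 in E11.5 Ebf2-EGFP- cells marked 79 of the 187 CpG-rich and 696 of the 4491 other lincRNAs. The CpG-rich share was 1.71% among lincRNAs without H3K27ac in Ebf2-EGFP+ cells, 4.49% among those marked at 1 stage, 8.84% at 2 and 29.9% (22.6 to 38.4) at 3. For H3K27me3 in Ebf2-EGFP+ cells the intervals of CpG-rich and other lincRNAs overlapped at every stage.

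**Figure D5:**
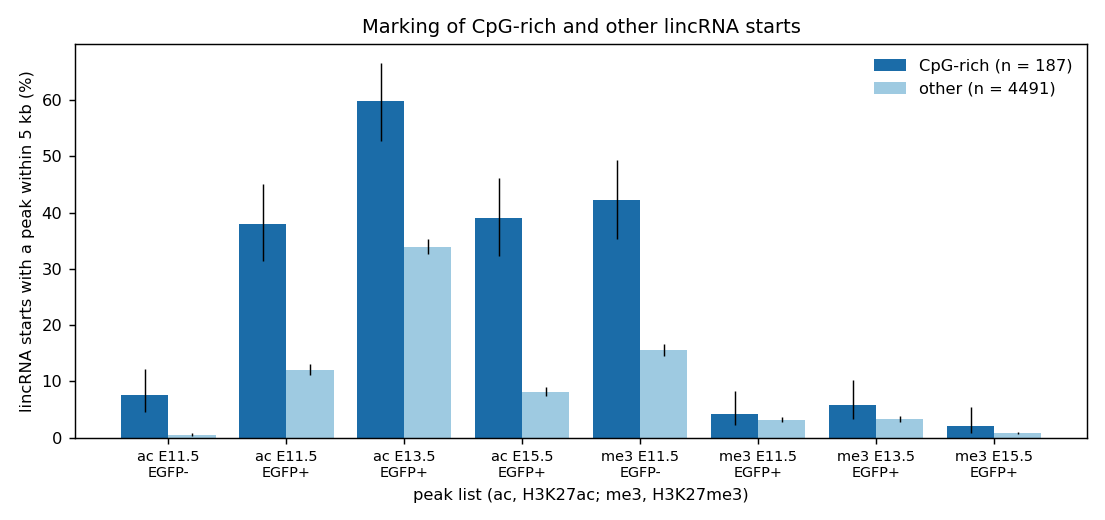
Share of lincRNA starts with a peak within 5 kb (y axis, percent) for CpG-rich (n = 187) and other (n = 4491) promoters in each list (x axis); bars carry Wilson 95% intervals. The intervals lie apart in the 4 H3K27ac lists and in H3K27me3 of E11.5 Ebf2-EGFP- cells, and overlap in the 3 H3K27me3 lists of Ebf2-EGFP+ cells.

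Short sequence motifs were counted in the same 300 bases on both strands. The letters TATAAA (the TATA box) were present in 17.42% of lincRNA and 12.65% of coding promoters, CAGATG (an E-box) in 23.9% and 15.3%, and CCCNNGGG (the core recognised by EBF factors) in 7.20% and 15.9%. The pseudogene shares were 23.58%, 20.95% and 5.344% in this order. Among the 127 lincRNAs acetylated at all 3 stages the shares were 11.81%, 19.69% and 15.75%, against 20.34%, 24.28% and 5.736% at no stage. Coding promoters had 6.114%, 11.24% and 19.57% at all 3 stages, against 24.25%, 20.03% and 9.877% at no stage. The direction was thus not particular to lincRNAs. Of the promoters shown, Meg3 held TATAAA and Mir124a-1hg held CAGATG. A match is a description of letters and not a binding site.

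In the E13.5 H3K27ac list and the H3K27me3 list of Ebf2-EGFP- cells the marked share was higher the closer a lincRNA lay to a coding gene. H3K27ac at E13.5 marked 50.4% of 272 lincRNAs over 5 to 10 kb from a coding start, 42.8% over 10 to 50 kb, 37.1% over 50 to 100 kb and 26.3% over 100 kb. H3K27me3 in E11.5 Ebf2-EGFP- cells was at 27.2%, 20.6%, 17.8% and 11.7% of the same classes. Pseudogenes had the same order in both lists, at 37.0%, 32.5%, 27.2% and 17.5%, and at 18.6%, 17.1%, 13.2% and 8.99%. For lincRNAs not every list held to this order. The shares were 23.5%, 15.1%, 16.9% and 8.60% for H3K27ac and 3.31%, 4.09%, 3.21% and 2.56% for H3K27me3, both at E11.5 in Ebf2-EGFP+ cells. Where the nearest coding start was itself acetylated at E13.5, 39.3% of lincRNAs were, against 26.7% where it was not. At E11.5 these shares were 14.18% and 11.75% and at E15.5 9.70% and 8.87%, with overlapping intervals at both stages, and for H3K27ac in Ebf2-EGFP- cells 0.304% and 0.828%. For lincRNAs over 5 to 10 kb away they were 31.25% and 12.5% at E11.5, 60.1% and 24.32% at E13.5, and 25.97% and 8.475% at E15.5. For H3K27me3 they were 18.3% and 14.31% in Ebf2-EGFP- cells and 6.942% and 2.895% at E13.5, with intervals apart. The H3K27me3 intervals overlapped at E11.5 in Ebf2-EGFP+ cells and at E15.5. By chromosome, the E13.5 H3K27ac share ran from 12.1% of 91 lincRNAs on X to 51.5% of 202 on chromosome 17. Just inside the limit of the rule, at over 5 to 6 kb, 31 of 55 lincRNAs were acetylated at E13.5, and just outside it, at 4 to 5 kb, 47 of 59.

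No lincRNA was marked in all 8 lists. A total of 2422 (51.8%) had no peak in any list, 1264 had one in a single list, and 13 starts at 8 loci had peaks in 6 or more. Other gene starts were not counted by number of lists, so these counts cannot be called particular to lincRNAs. Gm26917, Gm42418 and AY036118, marked in 7 lists, share their peaks at chr17:39843013-39848788, which overlaps an annotated rRNA gene, CT010467.1, and the RefSeq pseudogene Rn18s-rs5. Gm33838 had a single peak in each of the same 7 lists, with nearest edges 1983 to 2094 bp after the start. The list without a peak was H3K27me3 of E11.5 Ebf2-EGFP+ cells in both cases. Peaks of both marks in all other cell groups at one position were thus present at these starts, and without the 13 starts the count with both marks in E11.5 Ebf2-EGFP- cells went from 25 to 13 and at E15.5 from 13 to 7.

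Of the 188 lncRNAs that the study listed as differing in expression between cell groups and that the annotation holds, 39 were members. H3K27ac marked 12, 21 and 17 of these 39 at the successive stages, H3K27me3 in E11.5 Ebf2-EGFP- cells marked 21, and 11 had no peak. As shares, 30.8%, 53.8% and 43.6% were acetylated, against 31.9%, 46.5% and 31.1% of all gene starts, and 53.8% were trimethylated, against 32.8%. Of the 13 that were listed as higher in Ebf2-EGFP+ cells, 3, 6 and 3 were acetylated by stage (23.1%, 46.2% and 23.1%) and 0 at all 3. By stage these shares are at or under those of all gene starts. They are over those of all lincRNA members, at 13.1%, 35.0% and 9.36%. For all 3 stages the share is under both, which were 18.6% and 2.72%. Gm28050 had 459 bp of H3K27ac at E11.5 and 130 bp at E13.5, and D930028M14Rik had 229 and 784 bp, with 225 and 939 bp of H3K27me3 in Ebf2-EGFP- cells in turn. Other members of the 13 differed. Gm2694 had no H3K27ac, and H3K27me3 in Ebf2-EGFP+ cells of E11.5 (144 bp) and E13.5 (175 bp). Dubr had only 137 bp of H3K27me3 in Ebf2-EGFP- cells, and 4 of the 13 had no peak in any list. The CR-specific lncRNAs included 2 members, of which E330013P04Rik had 283 bp of H3K27ac at E13.5 and 130 bp of H3K27me3 in Ebf2-EGFP- cells, and Gm26649 had no peak. These lists were drawn from cells of the same study and are not independent evidence.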

How the data were processed

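Chromatin immunoprecipitation was done by the authors on sorted cortical cells of Tg(Ebf2-EGFP)FB58Gsat embryos, in 15 ChIP and 8 input libraries. Per the labels and methods, the authors mapped reads on mm10 by Bowtie (version 1.1.2 in the submitters' notes), allowing 3 mismatches, and called peaks by MACS at p 1e-05. The MACS version, the use of input and the pooling of libraries are not given in the sources used here. The authors deposited 8 peak lists of coordinates, 1 per mark and cell group, in which the score is 0 for every peak, so peak height, depth and replicate spread are unknown and no test was made. Input libraries were not analysed here.

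Gene starts were taken from GENCODE M21 on mm10 (GRCm38), chromosomes 1 to 19 and X. A start was marked by a peak overlapping the window of 5 kb on either side. Shares carry Wilson 95% intervals for counting only. Promoter windows (250 bases before to 50 after the start) were read from the GRCm38 sequence, and mature microRNAs from RefSeq. Python 3.11.15, numpy 2.4.6, pysam 0.24.0 and matplotlib 3.10.9 were used, and the window count was tested on simulated data. Named genes were members of the role lists and of the CR-specific list, the starts with the largest summed peak width in each pattern (10 for all stages, 5 for a single stage or list) and those with peaks in the most lists. Gm3764, 6720427I07Rik, Gm28050, D930028M14Rik, Gm2694 and Dubr were added after their values were seen. The members and lists were chosen with earlier results of these data known. Alternatives were a 1 kb window, a minimum peak width of 300 bp, lists shortened to equal length by width, any transcript start, a distance of 10 kb and loci merged at 10 kb.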

Additional observations from a re-analysis of the deposited data

How the results depend on the processing

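The counts of marked lincRNAs depended on what was accepted as a peak, and 2 of them on which starts were kept. Values follow the order H3K27ac in Ebf2-EGFP- and then in Ebf2-EGFP+ cells by stage, H3K27me3 likewise, H3K27ac at all 3 stages and at each stage alone, both marks in the 4 cell groups, and trimethylated in Ebf2-EGFP- but acetylated in Ebf2-EGFP+ cells of E11.5. With a 1 kb window they were 18, 235, 610, 203, 298, 44, 51, 12, 55, 105, 469, 85, 14, 7, 18, 7 and 81. With peaks of at least 300 bp they were 9, 135, 267, 186, 117, 5, 14, 5, 27, 54, 209, 96, 6, 0, 8, 5 and 28. With the 1386 widest H3K27ac and 1438 widest H3K27me3 peaks of each list they were 37, 21, 15, 28, 10, 34, 40, 39, 3, 4, 10, 9, 4, 4, 4, 4 and 5, so that the E13.5 list no longer marked the most lincRNAs for H3K27ac, the Ebf2-EGFP- list became the highest for H3K27ac and the lowest for H3K27me3, and the orders of both marks turned. Taking any transcript start, a distance of over 10 kb (4406 starts) or merged loci (4353) moved none of the 17 counts by over 1.5 times. Leaving out the 13 starts with peaks in 6 or more lists, chosen after seeing the data, moved both marks in E11.5 Ebf2-EGFP- cells to 13 and in E15.5 Ebf2-EGFP+ cells to 7. No paired analysis was possible because there is 1 peak list per group and the values come from no test, and for the same reason no replicate could be left out. Depth is unknown, so a missing peak is not shown to be an absent mark.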
